A study of Mus musculus with 18 samples.

Results

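The TNF ligand and receptor superfamily was followed here in splenic donor T cells of mice after haematopoietic stem cell transplantation. Members were taken by gene symbol: every symbol of the form Tnfsf or Tnfrsf with a number, plus Fas, Fasl, Cd27, Cd40, Cd40lg, Cd70, Lta, Ltb, Ltbr, Eda, Edar, Eda2r and Ngfr. This gave 45 of the 46073 genes in the table: 27 receptors, 17 ligands and 1 antisense transcript. Of these, 38 had enough reads to be tested. Tnf itself and Relt belong to the same superfamily but lie outside the rule by symbol, and are given separately at the end. RNA was measured by total RNA sequencing in 12 libraries, 3 in each of 4 groups: allogeneic KO, allogeneic WT, syngeneic KO and syngeneic WT. Donors were C57BL/6 mice that carry the CD45.2 marker, with Wapl deleted (KO) or intact (WT). Allogeneic recipients were BALB/c background mice (CByJ.SJL(B6)-Ptprca/J per the protocol), irradiated with 8 Gy and given 1000000 donor T cells. Syngeneic recipients were B6.SJL-Ptprca Pepcb/BoyJ mice, irradiated with 9.5 Gy and given 8500000 T cells as the protocol is read here. Both kinds of recipient carry CD45.1, and all also received 5000000 donor marrow cells depleted of T cells. Mice named in the protocol were females 8 to 12 weeks old. For the KO donors, neither the sex, the Cre line nor the deleted exons are given. For the syngeneic KO libraries, the cell type label names the allogeneic recipient strain, while the transplant type, title and source say syngeneic, and they were grouped by transplant type. On day 7, live CD3+ CD45.2+ cells were sorted from spleens, with 2 to 4 mice pooled per library, so p-values measure the spread between pools. Allogeneic and syngeneic groups therefore also differ in recipient strain, irradiation dose and number of T cells given, and these cannot be told apart. Allogeneic values are those of the table columns named by identifier alone, and 6 further columns with the same identifiers and an added prefix were not used.

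Ligands of this family are mostly trimers on the cell surface or released from it, and each binds 1 or a few receptors that cluster when bound. Costimulatory receptors such as CD137 (Tnfrsf9), OX40 (Tnfrsf4), GITR (Tnfrsf18), CD27 and CD30 (Tnfrsf8) have no death domain. They recruit TRAF adaptors, signal to NF-kB and sustain the expansion and survival of activated T cells. Death domain receptors such as Fas, Tnfrsf1a and the TRAIL receptor Tnfrsf10b can recruit FADD or TRADD, and Fas and Tnfrsf10b can start apoptosis through caspases. Donor T cells that meet foreign tissue antigens after allogeneic transplantation become activated. Fas ligand is among the molecules with which such cells kill, and OX40, CD137 and CD40 ligand mark activated T cells.

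Promoter windows are shown for 4 members that were higher in allogeneic WT than in syngeneic WT libraries. They were chosen from those whose windows hold a match to a motif searched. The windows of Tnfrsf13c and Tnfsf10, also higher there, hold a match too and are not shown. The windows of Fasl, Tnfrsf1b, Tnfrsf18, Tnfrsf23 and Tnfrsf25, which were also higher there, hold none. The windows come from RefSeq (GRCm38.p6) and run from 250 bases before to 50 bases after a transcription start. Of the 45 members, 34 were in that table, with 38 windows. Sequences are written 5′ to 3′ on the gene's strand, and capitals mark a match to the AP-1 motif TGANTCA or the NFAT core TGGAAA on either strand. Tnfrsf8 shows AP-1 letters only, Tnfrsf4 NFAT letters only, and Tnfrsf9 has one of the motifs in each window. The Tnfrsf9 windows are chr4:150919905-150920204, plus strand, and chr4:150927749-150928048, plus strand. The Tnfrsf4 window is chr4:156013445-156013744, plus strand, that of Tnfrsf8 is chr4:145315115-145315414, minus strand, and that of Tnfsf14 is chr17:57194132-57194431, minus strand.
Tnfrsf9, upstream start: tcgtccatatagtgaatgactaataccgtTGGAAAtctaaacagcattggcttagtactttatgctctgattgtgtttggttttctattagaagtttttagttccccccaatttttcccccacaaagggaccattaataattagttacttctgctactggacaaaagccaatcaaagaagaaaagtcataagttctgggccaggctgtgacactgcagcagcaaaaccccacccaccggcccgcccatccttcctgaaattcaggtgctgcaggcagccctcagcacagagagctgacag
Tnfrsf9, downstream start: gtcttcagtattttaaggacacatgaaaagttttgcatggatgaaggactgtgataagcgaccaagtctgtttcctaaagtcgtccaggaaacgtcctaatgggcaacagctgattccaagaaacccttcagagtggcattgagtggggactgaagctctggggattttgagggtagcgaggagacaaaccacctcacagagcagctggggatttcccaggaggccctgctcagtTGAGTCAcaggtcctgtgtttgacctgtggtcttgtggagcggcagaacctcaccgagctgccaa
Tnfrsf4: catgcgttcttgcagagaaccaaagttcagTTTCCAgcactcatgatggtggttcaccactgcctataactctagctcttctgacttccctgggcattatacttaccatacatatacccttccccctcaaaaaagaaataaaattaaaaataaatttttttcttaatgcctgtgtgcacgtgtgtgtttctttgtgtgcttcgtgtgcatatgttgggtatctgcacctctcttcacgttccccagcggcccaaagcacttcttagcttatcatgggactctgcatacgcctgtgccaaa
Tnfrsf8: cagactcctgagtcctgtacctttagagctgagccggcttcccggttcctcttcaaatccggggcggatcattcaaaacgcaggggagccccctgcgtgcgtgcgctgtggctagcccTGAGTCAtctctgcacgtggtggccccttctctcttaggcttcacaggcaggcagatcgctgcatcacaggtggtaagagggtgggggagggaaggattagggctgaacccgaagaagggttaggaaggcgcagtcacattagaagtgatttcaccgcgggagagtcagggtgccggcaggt
Tnfsf14: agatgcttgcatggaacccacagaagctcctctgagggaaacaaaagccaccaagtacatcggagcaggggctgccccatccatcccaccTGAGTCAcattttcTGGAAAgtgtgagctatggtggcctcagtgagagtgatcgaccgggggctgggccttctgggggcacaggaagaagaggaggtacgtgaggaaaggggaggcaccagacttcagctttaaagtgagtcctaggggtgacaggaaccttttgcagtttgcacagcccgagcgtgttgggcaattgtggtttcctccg
The AP-1 letters stood in 7 of the 38 member windows (18.4%), those of Fas, Tnfrsf8, Tnfrsf9, Tnfsf13, Tnfsf13b and Tnfsf14, against 7.81% of all 32851 windows in the table. The 2 windows of Tnfsf13b overlap and hold the same site. The NFAT core stood in 6 member windows (15.8%), those of Tnfrsf13c, Tnfrsf21, Tnfrsf4, Tnfrsf9, Tnfsf10 and Tnfsf14, against 21.4% of all windows. A kappa B motif, GGGA and TTCC with any 2 bases between them, stood in 1 member window, that of Ltb (2.63%), against 1.47% of all windows. Only this form was searched, so related letters such as GGGATTTCCC, in the downstream Tnfrsf9 window, were neither counted nor marked. In the Tnfsf14 window the AP-1 and NFAT letters lie close together without overlapping. In the Tnfrsf4 window the NFAT core is on the opposite strand, so it reads TTTCCA. A match only says that these letters are there.

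Total counts ran between 45965700 and 89007100 per library, and ribosomal RNA genes took 8.27 to 32.1% of them. Syngeneic KO replicate 1 had the highest ribosomal share and stood apart from the other libraries on the second principal component of all tested genes. Wapl, listed as Wapal, averaged 140.0 ± 14.6 CPM (counts scaled for the depth of each library) in allogeneic KO and 161.0 ± 6.80 CPM in allogeneic WT libraries (SD, n = 3 each). It averaged 134.6 ± 6.29 CPM in syngeneic KO and 187.8 ± 20.8 CPM in syngeneic WT libraries. The difference passed the test in the syngeneic setting (log2 fold change −0.48 ± 0.11, edgeR adjusted p = 0.0368) and not in the allogeneic one (−0.20 ± 0.11, adjusted p = 0.963). Wapl transcript thus remained at a high level in KO libraries, and with the deleted exons not given it checks the labels only in part. Cd3e, which marks T cells, stood at 547 to 715 CPM in allogeneic KO and 578 to 620 CPM in allogeneic WT libraries. In syngeneic KO it stood at 402 to 638 CPM, and in syngeneic WT libraries at 359 to 485 CPM. Of 9 T cell markers, 4 were higher and 1 lower in allogeneic than in syngeneic WT libraries (55.6%, beside 32.3% of all genes). In KO cells 2 were higher and 0 lower (22.2%, beside 24.4% of all genes). The part of T cell content in the family's changes was not tested. Summed B cell markers stayed between 11.9 and 24.8 CPM. In bulk RNA, a change in the share of a cell type and a change in RNA per cell cannot be told apart.

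Red cell and myeloid transcripts moved with the groups. The sum of 5 erythroid markers stood at 7.51 to 10.8 CPM in allogeneic KO, 6.84 to 18.2 in allogeneic WT, 12.6 to 45.99 in syngeneic KO and 1213 to 2534 CPM in syngeneic WT libraries. The summed list of 12 myeloid markers ran from 181 to 343 CPM in allogeneic KO, 324 to 548 in allogeneic WT, 28.7 to 346 in syngeneic KO and 249 to 775 CPM in syngeneic WT libraries. Their part in the comparisons with syngeneic libraries was not tested. Of 5 NK markers, 2 were higher and 2 lower in allogeneic than in syngeneic libraries, in WT and in KO cells alike. In WT cells 1 of 4 plasma cell markers was higher, 1 of 5 dendritic markers was higher and 2 were lower, and of 4 stromal and endothelial markers 1 was higher and 1 lower. Over all tested genes, 32.3% passed in WT and 24.4% in KO cells. Family members together took 0.118 to 0.1496% of the total counts in allogeneic libraries, above the 0.0928 to 0.102% of all syngeneic libraries. These totals include ribosomal RNA, whose share also split by setting. It ran from 8.27 to 18.03% in allogeneic and from 20.2 to 32.1% in syngeneic libraries. The part of ribosomal RNA in the difference in family share was not tested.

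Set against exon length, the most abundant members were Ltb, Cd27 and Tnfrsf1b. Ltb encodes lymphotoxin beta, which holds lymphotoxin alpha on the cell surface. It stood at 82.2 ± 23.3 CPM per kb in allogeneic KO, 68.9 ± 6.43 in allogeneic WT, 163 ± 56.5 in syngeneic KO and 136 ± 25.6 CPM per kb in syngeneic WT libraries. In both syngeneic groups it was the highest member, and its lowest library there lay above the highest library of Cd27. In the allogeneic groups Ltb, Cd27 and Tnfrsf1b overlapped in their levels per kb, at means between 68.9 and 82.2. Below them, in allogeneic KO libraries, came Tnfrsf9 at 56.2 ± 22.4, Tnfrsf18 at 42.6 ± 16.2, Tnfrsf4 at 34.8 ± 14.7, Fasl at 33.5 ± 10.7 and Tnfsf14 at 30.3 ± 6.87 CPM per kb, each overlapping with the next. In syngeneic WT libraries the places after Cd27 went to Tnfrsf14 at 29.7 ± 5.54, Tnfrsf1b at 26.1 ± 1.37 and Tnfrsf18 at 20.03 ± 1.904 CPM per kb, while Tnfrsf9 stood at 7.898 ± 0.288 and Fasl at 6.13 ± 0.955.

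**Figure D1:**
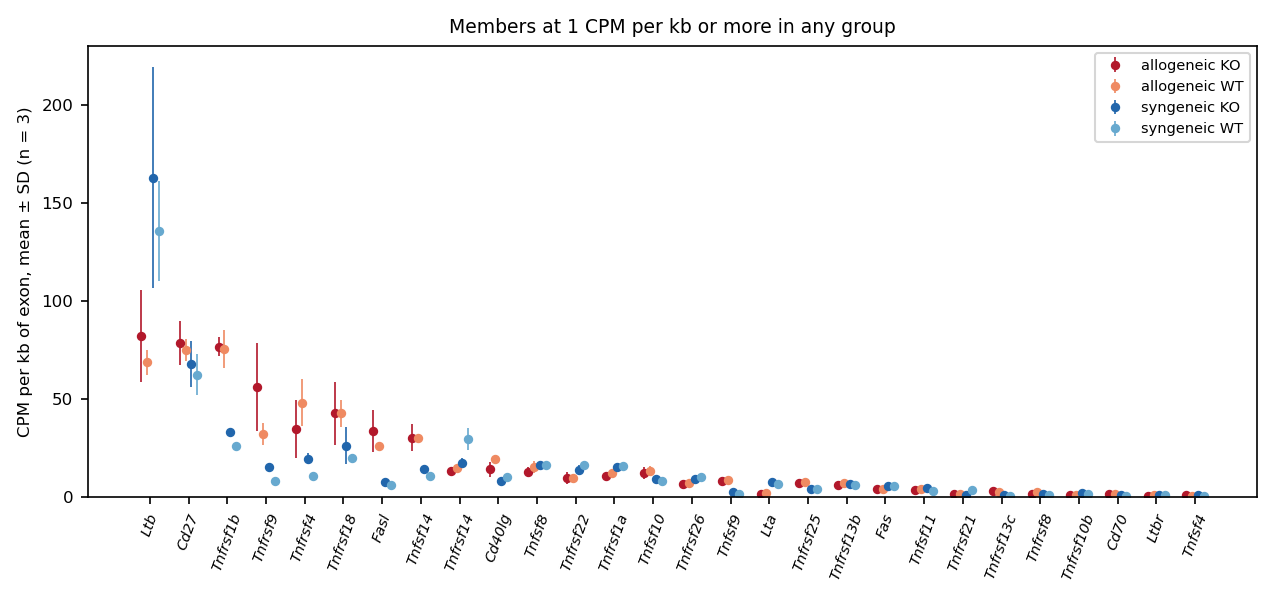
Level per exon length (mean CPM per kb ± SD, n = 3) of the 28 members that reach 1 CPM per kb in any group, with allogeneic KO, allogeneic WT, syngeneic KO and syngeneic WT side by side. Ltb is highest in the syngeneic groups at 163 and 136 CPM per kb, and Tnfrsf1b, Tnfrsf9, Tnfrsf4, Fasl and Tnfsf14 sit higher in the allogeneic groups.

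The first comparison asks what the allogeneic setting changed in donor T cells, in WT and separately in KO cells. In WT cells, 23 of 38 tested members passed the test (edgeR quasi-likelihood, Benjamini-Hochberg adjusted p under 0.05 over all genes), 14 higher and 9 lower, against 32.3% of all 18447 tested genes (16.4% higher and 15.9% lower). Their median log2 fold change was 0.54, against −0.03 over all tested genes. In KO cells, 16 members passed, 11 higher and 5 lower, against 24.4% of all genes (13.2% higher and 11.2% lower), with a median of 0.34 against −0.02. The 2 comparisons use different libraries. Fasl, Tnfrsf9, Tnfsf9, Tnfsf14, Tnfrsf13c and Tnfrsf1b rose in both, and Lta, Ltb and Tnfrsf10b fell in both.

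**Figure D2:**
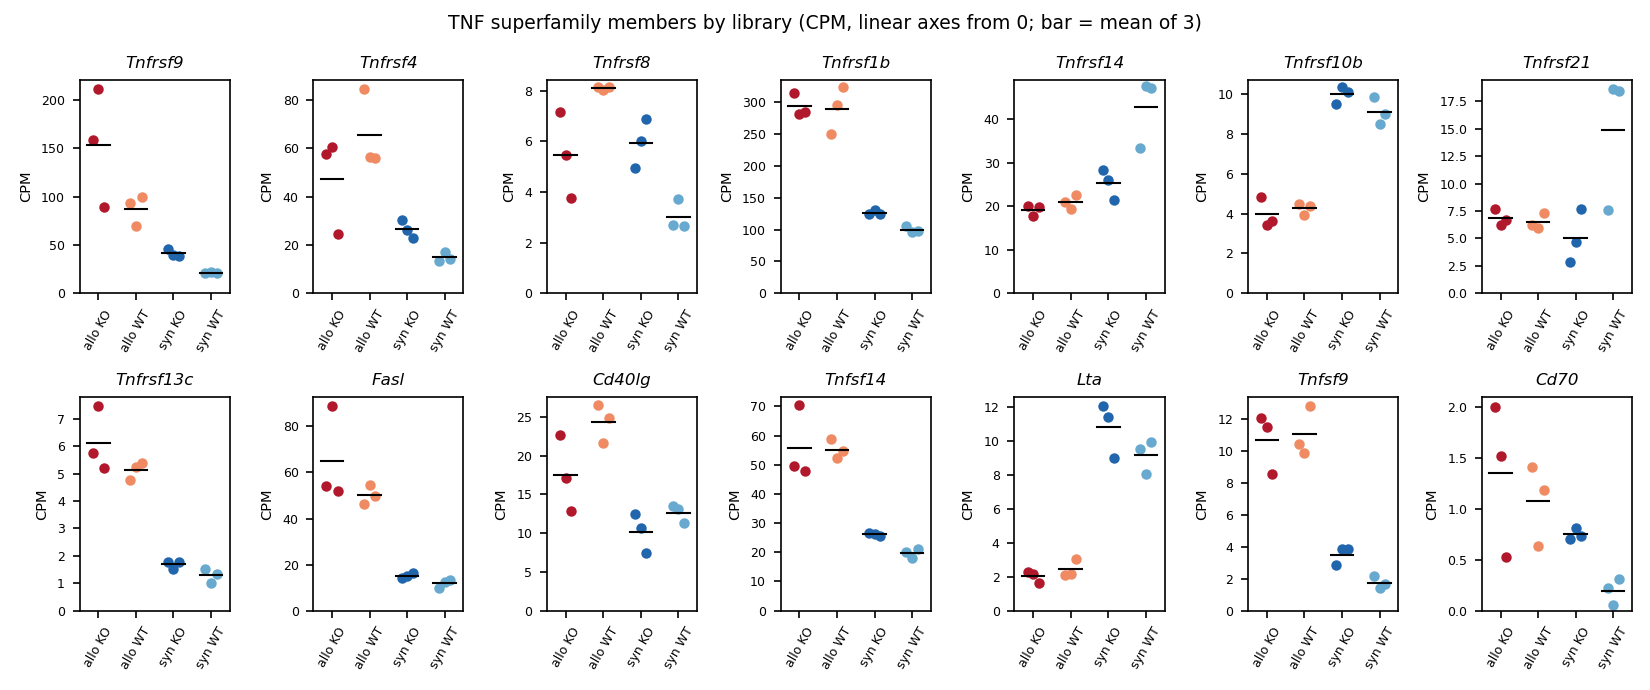
CPM of 14 members in each of the 12 libraries (points) with the mean of 3 (bar), on linear axes from 0, for allogeneic KO, allogeneic WT, syngeneic KO and syngeneic WT. Fasl, Tnfrsf9, Tnfrsf1b, Tnfsf14 and Tnfsf9 lie higher in every allogeneic than in every syngeneic library, and Lta and Tnfrsf10b lie lower.

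Among the costimulatory receptors, 5 of 7 tested rose and 1 fell in WT cells, and 2 of 7 rose in KO cells. These are shares of 85.7% and 28.6%, beside the 32.3% and 24.4% of all genes. Tnfrsf9 (ENSMUSG00000028965, GRCm38 chromosome 4, 150914562 to 150946102, plus strand) encodes CD137, a receptor that activated T cells acquire. It had 159, 211 and 89.1 CPM in allogeneic KO libraries and 92.97, 69.5 and 99.1 CPM in allogeneic WT libraries, against 46.2, 39.4 and 38.9 CPM in syngeneic KO libraries and 20.8, 22.3 and 21.3 CPM in syngeneic WT libraries. Every allogeneic library lay above every syngeneic one, and the allogeneic KO libraries spread the widest. The log2 fold change was 2.02 ± 0.25 (SE) in WT cells (adjusted p = 6.64e-05) and 1.88 ± 0.25 in KO cells (adjusted p = 0.000148). Tnfrsf1b (ENSMUSG00000028599, GRCm38 chromosome 4, 145213463 to 145246870, minus strand), which encodes TNFR2, the TNF receptor without a death domain, had 315, 281 and 284 CPM in allogeneic KO libraries and 249.8, 295 and 323 CPM in allogeneic WT libraries, against 124, 131 and 124 CPM in syngeneic KO libraries and 106, 95.8 and 97.2 CPM in syngeneic WT libraries. The groups of the 2 settings did not overlap, and replicates lay close together. Its log2 fold change was 1.54 ± 0.12 in WT (adjusted p = 9.53e-07) and 1.22 ± 0.12 in KO cells (adjusted p = 9.33e-06).

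Tnfrsf4 (ENSMUSG00000029075, GRCm38 chromosome 4, 156013843 to 156016612, plus strand), encoding OX40, had 57.7, 60.5 and 24.4 CPM in allogeneic KO libraries and 84.8, 56.5 and 55.9 CPM in allogeneic WT libraries, against 30.5, 26.2 and 22.8 CPM in syngeneic KO libraries and 13.4, 17.1 and 14.3 CPM in syngeneic WT libraries. Allogeneic KO replicate 3 was far below the other allogeneic libraries and within the range of the syngeneic KO libraries. In WT cells the log2 fold change was 2.14 ± 0.30 (adjusted p = 0.000193), a 4.40-fold difference. In KO cells it was 0.84 ± 0.29 and missed the threshold (adjusted p = 0.0518; DESeq2 0.0156). It passed without allogeneic KO replicate 3, allogeneic WT replicate 1 or syngeneic KO replicate 1 (log2 fold changes 0.84 to 1.16, adjusted p 0.000682 to 0.0470). Tnfrsf8 (ENSMUSG00000028602, GRCm38 chromosome 4, 145267137 to 145315164, minus strand), encoding CD30, had 7.16, 5.45 and 3.76 CPM in allogeneic KO libraries and 8.16, 8.03 and 8.15 CPM in allogeneic WT libraries, against 4.94, 6.03 and 6.88 CPM in syngeneic KO libraries and 2.69, 3.73 and 2.67 CPM in syngeneic WT libraries. The allogeneic WT libraries were nearly equal and above all others, and allogeneic KO overlapped with syngeneic KO. Its log2 fold change was 1.42 ± 0.24 in WT cells (adjusted p = 0.000626) and −0.13 ± 0.23 in KO cells (adjusted p = 0.723, 95% interval −0.63 to 0.38). Tnfrsf18, encoding GITR, a receptor that regulatory and activated T cells carry, averaged 65.04 ± 10.3 CPM in allogeneic WT and 30.5 ± 2.902 CPM in syngeneic WT libraries (log2 fold change 1.09 ± 0.28, adjusted p = 0.0113). It averaged 64.97 ± 24.7 CPM in allogeneic KO and 39.96 ± 14.6 CPM in syngeneic KO libraries, which missed the threshold (0.70 ± 0.28, adjusted p = 0.0896; DESeq2 0.0436). The KO difference passed without allogeneic KO replicate 3 or syngeneic KO replicate 1 (log2 fold changes 0.96 to 1.08, adjusted p 0.00980 to 0.0138), and also in the replicate-block fit. Its exons overlap those of Gm16008 on the opposite strand, and whether the counting used strand is not given in the sources used here.

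Tnfrsf14 and Cd27 were not called higher in either comparison. Tnfrsf14 (ENSMUSG00000042333, GRCm38 chromosome 4, 154921933 to 154928563, minus strand) encodes HVEM, which binds LIGHT (Tnfsf14) and the inhibitory receptor BTLA. It had 19.99, 17.6 and 19.9 CPM in allogeneic KO libraries and 21.01, 19.3 and 22.5 CPM in allogeneic WT libraries, against 28.2, 26.1 and 21.3 CPM in syngeneic KO libraries and 33.5, 47.5 and 47.03 CPM in syngeneic WT libraries. Syngeneic WT libraries stood above all the others, and the allogeneic groups overlapped with each other. It fell by 1.03 on the log2 scale in allogeneic WT against syngeneic WT (SE 0.15, adjusted p = 0.000269). In KO cells the difference was −0.39 ± 0.15 and missed the threshold (adjusted p = 0.0790), passing only when syngeneic WT replicate 1 was left out of the fit (adjusted p = 0.0464). Cd27, the receptor for CD70, averaged 183 ± 26.3 CPM in allogeneic KO, 174 ± 12.95 CPM in allogeneic WT, 158 ± 27.5 CPM in syngeneic KO and 145 ± 24.4 CPM in syngeneic WT libraries. Its log2 fold change was 0.26 ± 0.16 in WT (95% interval −0.08 to 0.60) and 0.21 ± 0.16 in KO cells, neither past the test.

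Of the death domain receptors, 5 were tested, with 1 rise and 3 falls in WT cells and 1 rise and 2 falls in KO cells. That is 80% and 60% of them, beside 32.3% and 24.4% of all genes. Tnfrsf10b (ENSMUSG00000022074, GRCm38 chromosome 14, 69767472 to 69784411, plus strand), the receptor through which TRAIL starts apoptosis in the mouse, had 4.86, 3.44 and 3.65 CPM in allogeneic KO libraries and 4.49, 3.92 and 4.39 CPM in allogeneic WT libraries, against 9.53, 10.4 and 10.1 CPM in syngeneic KO libraries and 9.85, 8.51 and 9.01 CPM in syngeneic WT libraries. The allogeneic libraries lay at about 4 CPM and the syngeneic ones above 8, without overlap. It fell by 1.10 on the log2 scale in WT (SE 0.16, adjusted p = 0.000271) and by 1.33 in KO cells (SE 0.17, adjusted p = 8.15e-05). Tnfrsf1a, the TNF receptor with a death domain, fell by less. It averaged 31.9 ± 0.429 CPM in allogeneic WT and 41.6 ± 4.104 CPM in syngeneic WT libraries (log2 fold change −0.38 ± 0.10, adjusted p = 0.0145), and −0.50 ± 0.10 was the log2 fold change in KO cells (adjusted p = 0.00380). The WT call was lost without syngeneic WT replicate 1 or 3 (adjusted p 0.0602 to 0.0627, with log2 fold changes of −0.32 to −0.35). Tnfrsf25, which encodes DR3, a death domain receptor that costimulates T cells, rose. It averaged 16.7 ± 2.96 CPM in allogeneic KO and 17.4 ± 1.73 CPM in allogeneic WT, against 8.84 ± 0.631 CPM in syngeneic KO and 9.39 ± 1.09 CPM in syngeneic WT libraries. The log2 fold changes were 0.89 ± 0.16 (adjusted p = 0.000856) and 0.92 ± 0.16 (adjusted p = 0.000935). Fas did not pass in either comparison, at −0.49 ± 0.21 in WT (adjusted p = 0.0895) and −0.36 ± 0.21 in KO cells. In WT cells it passed when allogeneic KO replicate 2 was left out of the fit (adjusted p = 0.0411) and in the fit of the WT libraries alone.

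Tnfrsf21 (ENSMUSG00000023915, GRCm38 chromosome 17, 43016555 to 43089189, plus strand), encoding DR6, had 7.65, 6.21 and 6.699 CPM in allogeneic KO libraries and 6.19, 5.92 and 7.32 CPM in allogeneic WT libraries, against 2.81, 4.71 and 7.65 CPM in syngeneic KO libraries and 7.58, 18.6 and 18.4 CPM in syngeneic WT libraries. The 6 allogeneic libraries lay close together, while syngeneic WT replicates 2 and 3 were far above syngeneic WT replicate 1. It fell by 1.20 on the log2 scale in allogeneic WT against syngeneic WT (SE 0.36, adjusted p = 0.0224), and the KO difference was 0.44 ± 0.36 (adjusted p = 0.400). The call was lost without allogeneic WT replicate 1 or 2 or syngeneic WT replicate 2 or 3 (adjusted p 0.0712 to 0.0926, log2 fold changes −1.00 to −1.16). The summed myeloid list stood at 28.7, 150.1 and 346 CPM in syngeneic KO replicates 1 to 3 and 249, 754 and 775 CPM in syngeneic WT replicates 1 to 3. Mpo alone, which encodes myeloperoxidase, gave 19.2, 131 and 286 CPM of these in syngeneic KO and 42.0, 156 and 163 CPM in syngeneic WT libraries. The other 11 markers, a sum chosen after these values were seen, gave 9.45, 18.7 and 59.7 CPM in syngeneic KO and 207, 597 and 611 CPM in syngeneic WT libraries. In the allogeneic libraries the summed list ran from 181 to 548 CPM, while Tnfrsf21 stayed between 5.92 and 7.65 CPM. The part of myeloid cells in the Tnfrsf21 difference was not tested.

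Receptors best known from B cells, stroma and other cells had 2 rises and 3 falls among 11 tested in WT cells, and 2 rises and 1 fall in KO cells. The shares, 45.5% and 27.3%, stand beside 32.3% and 24.4% of all genes. Tnfrsf13c (ENSMUSG00000068105, GRCm38 chromosome 15, 82221743 to 82224369, minus strand), the BAFF receptor that mature B cells need to survive, had 5.75, 7.47 and 5.19 CPM in allogeneic KO libraries and 4.75, 5.23 and 5.39 CPM in allogeneic WT libraries, against 1.77, 1.53 and 1.78 CPM in syngeneic KO libraries and 1.51, 1.01 and 1.35 CPM in syngeneic WT libraries. Each allogeneic library was well above each syngeneic one. It was 3.97-fold higher in allogeneic WT (log2 fold change 1.99 ± 0.22, adjusted p = 2.38e-05) and 3.62-fold higher in allogeneic KO cells (1.86 ± 0.22, adjusted p = 5.26e-05). B cell markers did not rise with it in WT cells: of 9 tested, none was higher and 4 were lower in allogeneic WT, and the list summed to 11.9 to 14.4 CPM in allogeneic WT and 16.5 to 19.3 CPM in syngeneic WT libraries. In KO cells the list summed to 17.1 to 24.8 CPM in allogeneic and 15.8 to 21.7 CPM in syngeneic libraries, with 1 of 9, Pax5, called higher. Called markers made up 44.4% of the list in WT and 11.1% in KO cells, beside 32.3% and 24.4% of all genes.

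Tnfrsf13b, encoding TACI, another receptor for BAFF and APRIL, did not pass in either setting, at 19.9 ± 2.88 CPM in allogeneic WT and 17.3 ± 2.26 CPM in syngeneic WT libraries (log2 fold change 0.20 ± 0.14, 95% interval −0.10 to 0.51). Cd40, the receptor through which T cells help B cells and dendritic cells, was low, at 0.259 ± 0.0482 CPM in allogeneic WT and 0.694 ± 0.311 CPM in syngeneic WT libraries (log2 fold change −1.41 ± 0.45, adjusted p = 0.0310). That call was lost when any allogeneic WT library, or syngeneic WT replicate 2 or 3, was left out (adjusted p 0.0615 to 0.140, log2 fold changes −1.09 to −1.54). The neighbours Tnfrsf22, Tnfrsf23 and Tnfrsf26 on chromosome 7 are similar to each other, so the authors' counting could have divided reads among them and their values are uncertain. Exons of Tnfrsf23 and Tnfrsf26 also overlap E230032D23Rik on the opposite strand. Tnfrsf22 and Tnfrsf23 encode mouse decoy receptors for TRAIL. Tnfrsf22 averaged 40.8 ± 5.81 CPM in allogeneic WT and 67.7 ± 7.49 CPM in syngeneic WT libraries (log2 fold change −0.73 ± 0.21), Tnfrsf26 had −0.50 ± 0.12, and Tnfrsf23 went the other way at 0.75 ± 0.23. All 3 passed in WT cells. The call of Tnfrsf22 was lost without allogeneic WT replicate 1 or syngeneic WT replicate 2 (adjusted p 0.0813 to 0.0836), and that of Tnfrsf23 without allogeneic WT replicate 2 or 3 or syngeneic WT replicate 2 or 3 (0.0591 to 0.105). In KO cells Tnfrsf23 rose by 1.01 (adjusted p = 0.00677) and Tnfrsf26 fell by 0.44 on the log2 scale (adjusted p = 0.0161). The KO call of Tnfrsf26 was lost without allogeneic KO replicate 2 or syngeneic KO replicate 2 (0.0693 to 0.0735), and in the fit of the KO libraries alone.

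The remaining receptors of this kind were low and passed in no comparison. Tnfrsf11a, the RANK receptor, averaged 1.099 ± 0.422 CPM in allogeneic WT and 0.538 ± 0.251 CPM in syngeneic WT libraries (log2 fold change 1.04 ± 0.47). Tnfrsf12a, the TWEAK receptor, averaged 1.000 ± 0.164 CPM in allogeneic WT and 1.204 ± 0.125 CPM in syngeneic WT libraries (−0.27 ± 0.30). Tnfrsf17, the plasma cell receptor BCMA, averaged 0.113 ± 0.0387 CPM in allogeneic WT and 0.0285 ± 0.0261 CPM in syngeneic WT libraries (1.92 ± 1.28). Tnfrsf19 had 1.23 ± 0.55 in WT and 1.18 ± 0.60 in KO cells, and passed in both when syngeneic KO replicate 3 was left out (adjusted p 0.0324 and 0.00971), and in the WT libraries fitted alone.

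**Figure D3:**
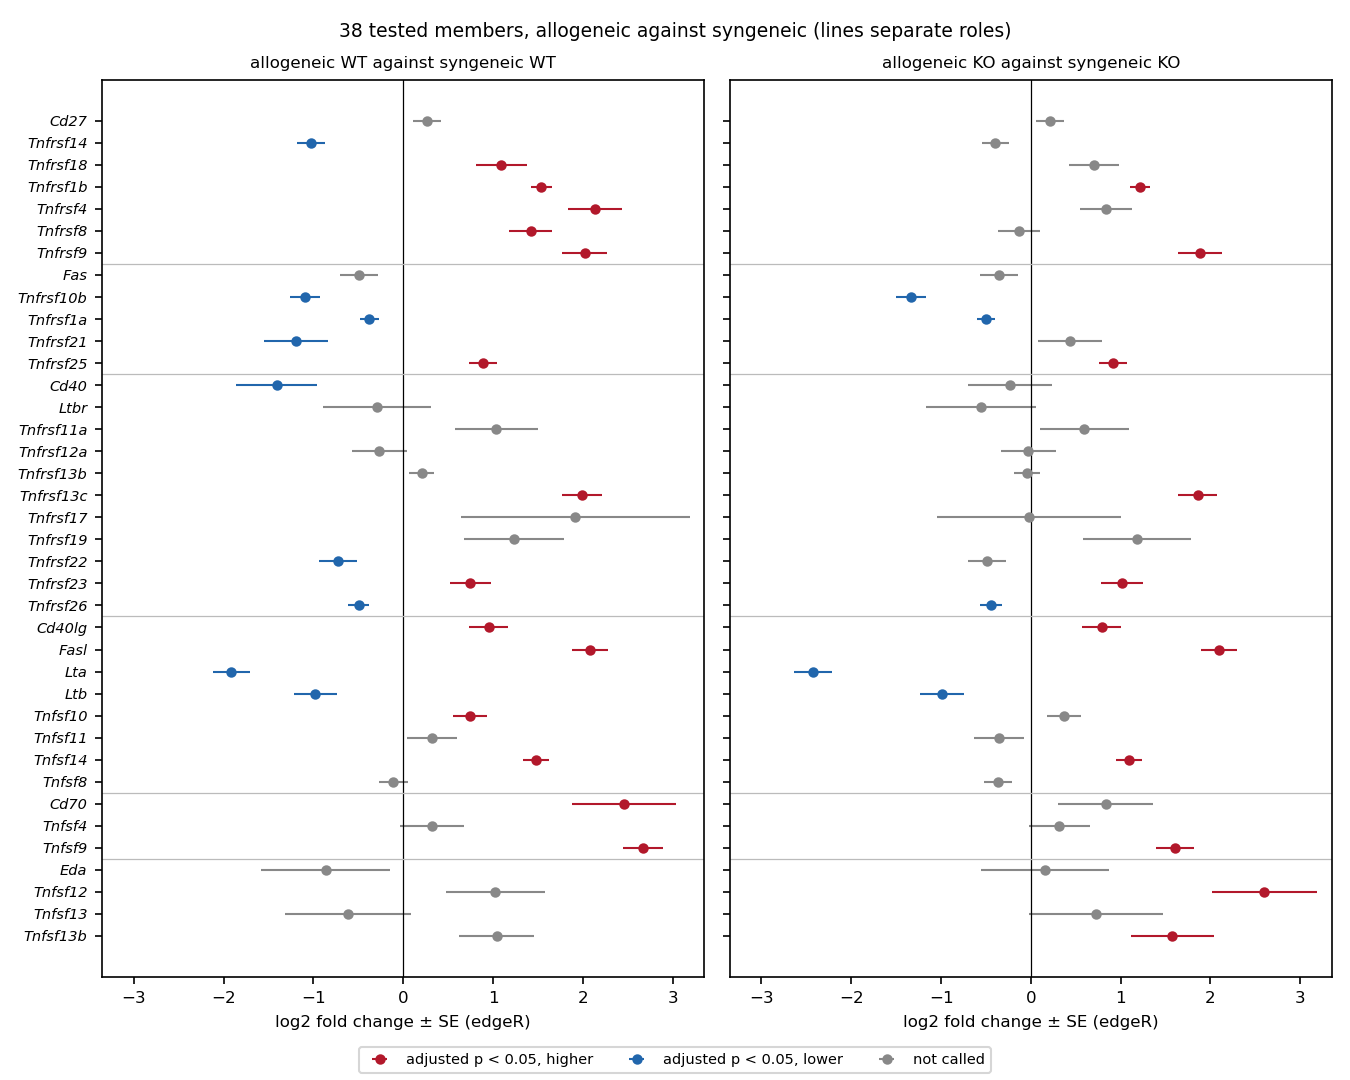
Log2 fold change ± SE of the 38 tested members, allogeneic WT against syngeneic WT (left panel) and allogeneic KO against syngeneic KO (right panel), grouped by role. Red and blue points passed the adjusted p of 0.05, 14 higher and 9 lower in WT cells, and 11 higher and 5 lower in KO cells.

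Of the 8 ligands that T cells make, 4 rose and 2 fell in WT cells, and 3 rose and 2 fell in KO cells. Called shares were 75% and 62.5%, beside 32.3% and 24.4% of all genes. Fasl (ENSMUSG00000000817, GRCm38 chromosome 1, 161780689 to 161788495, minus strand), the ligand with which cytotoxic cells trigger Fas, had 53.96, 88.7 and 52.1 CPM in allogeneic KO libraries and 46.2, 54.7 and 49.6 CPM in allogeneic WT libraries, against 14.4, 14.9 and 16.4 CPM in syngeneic KO libraries and 9.82, 12.4 and 13.4 CPM in syngeneic WT libraries. The lowest allogeneic library lay well above the highest syngeneic one. It was 4.23-fold higher in WT (log2 fold change 2.08 ± 0.20, adjusted p = 6.25e-06) and 4.27-fold higher in KO cells (2.09 ± 0.20, adjusted p = 8.89e-06). Tnfsf14 (ENSMUSG00000005824, GRCm38 chromosome 17, 57189492 to 57194177, minus strand), encoding LIGHT, the ligand of HVEM and of the lymphotoxin beta receptor, had 49.5, 70.5 and 47.7 CPM in allogeneic KO libraries and 58.8, 52.1 and 54.6 CPM in allogeneic WT libraries, against 26.8, 26.3 and 25.6 CPM in syngeneic KO libraries and 20.1, 18.1 and 21.1 CPM in syngeneic WT libraries. Again the settings did not overlap. Its log2 fold change was 1.48 ± 0.14 in WT (adjusted p = 7.82e-06) and 1.09 ± 0.14 in KO cells (adjusted p = 0.000120).

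Cd40lg (ENSMUSG00000031132, GRCm38 chromosome X, 57212143 to 57224042, plus strand), the ligand with which helper T cells engage CD40, had 22.7, 17.1 and 12.9 CPM in allogeneic KO libraries and 26.6, 21.7 and 24.9 CPM in allogeneic WT libraries, against 12.4, 10.6 and 7.397 CPM in syngeneic KO libraries and 13.4, 13.1 and 11.3 CPM in syngeneic WT libraries. Allogeneic WT libraries lay above all syngeneic libraries, and allogeneic KO replicate 3 lay within 1 CPM of the highest syngeneic KO library. The log2 fold change was 0.95 ± 0.22 in WT (adjusted p = 0.00485) and 0.79 ± 0.22 in KO cells (adjusted p = 0.0180). The KO call was lost without allogeneic KO replicate 1 or syngeneic KO replicate 3 (adjusted p 0.0845 and 0.0715), and in a fit of the KO libraries alone (0.0696). Cd4, which marks the helper cells that are the main source of this ligand, also rose in WT cells (1.08 ± 0.23, adjusted p = 0.00362) and had 0.44 ± 0.23 in KO cells (adjusted p = 0.182). Cd8a, a chain of CD8, fell by 0.63 in WT cells (adjusted p = 0.0205). Whether the mix of CD4 and CD8 cells bears on Cd40lg was not tested. Tnfsf10, encoding TRAIL, averaged 69.7 ± 13.9 CPM in allogeneic WT and 41.6 ± 2.35 CPM in syngeneic WT libraries (log2 fold change 0.75 ± 0.19, adjusted p = 0.00882). In KO cells it had 0.37 ± 0.19 (adjusted p = 0.169), and 0.58 without allogeneic KO replicate 3 (adjusted p = 0.0147).

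Both lymphotoxin genes, which lie close together on chromosome 17, fell. Lta (ENSMUSG00000024402, GRCm38 chromosome 17, 35203165 to 35205351, minus strand), encoding lymphotoxin alpha, had 2.25, 2.17 and 1.62 CPM in allogeneic KO libraries and 2.099, 2.18 and 3.01 CPM in allogeneic WT libraries, against 12.04, 11.4 and 8.96 CPM in syngeneic KO libraries and 9.51, 8.04 and 9.93 CPM in syngeneic WT libraries. Every allogeneic library lay far below every syngeneic one. It fell by 1.92 on the log2 scale in WT (SE 0.21, adjusted p = 1.99e-05) and by 2.42 in KO cells (SE 0.21, adjusted p = 4.91e-06), the largest fall of any tested member in both comparisons. Ltb averaged 125 ± 35.3 CPM in allogeneic KO and 104 ± 9.75 CPM in allogeneic WT, against 247 ± 85.7 CPM in syngeneic KO and 206 ± 38.8 CPM in syngeneic WT libraries. Its log2 fold changes were −0.98 ± 0.24 (adjusted p = 0.00859) and −0.99 ± 0.24 (adjusted p = 0.0103). Tnfsf8, the CD30 ligand, and Tnfsf11, the RANK ligand, passed in neither comparison. Tnfsf8 had −0.11 ± 0.16 in WT and −0.36 ± 0.16 in KO cells, and Tnfsf11 had 0.32 ± 0.28 and −0.36 ± 0.28.

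The ligands of CD137, CD27 and OX40, namely Tnfsf9, Cd70 and Tnfsf4, were low in level, and Tnfsf9 and Cd70 rose in WT cells. Tnfsf9 (ENSMUSG00000035678, GRCm38 chromosome 17, 57105325 to 57107757, plus strand), the ligand of CD137, had 12.01, 11.4 and 8.51 CPM in allogeneic KO libraries and 10.4, 9.82 and 12.8 CPM in allogeneic WT libraries, against 2.83, 3.83 and 3.83 CPM in syngeneic KO libraries and 2.15, 1.39 and 1.64 CPM in syngeneic WT libraries. All allogeneic libraries lay above all syngeneic ones. It was 6.37-fold higher in WT (log2 fold change 2.67 ± 0.23, adjusted p = 2.39e-06), the largest rise of any tested member there, and 3.04-fold higher in KO cells (1.60 ± 0.22, adjusted p = 0.000150). Its exons overlap those of Gm11110 on the opposite strand. Cd70 (ENSMUSG00000019489, GRCm38 chromosome 17, 57145997 to 57149777, minus strand), the ligand of CD27, had 1.99, 1.52 and 0.521 CPM in allogeneic KO libraries and 1.41, 0.631 and 1.18 CPM in allogeneic WT libraries, against 0.703, 0.808 and 0.734 CPM in syngeneic KO libraries and 0.218, 0.0513 and 0.307 CPM in syngeneic WT libraries. Every allogeneic WT library was above every syngeneic WT library, while allogeneic KO replicate 3 lay below the syngeneic KO libraries. The log2 fold change was 2.46 ± 0.58 in WT (adjusted p = 0.00626) and 0.83 ± 0.53 in KO cells (adjusted p = 0.275). Tnfsf4, the OX40 ligand, had 0.32 ± 0.35 in WT and 0.32 ± 0.34 in KO cells, neither past the test.

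Ligands best known from other cells were low in every group. Tnfsf12, encoding TWEAK, averaged 0.6502 ± 0.217 CPM in allogeneic KO and 0.103 ± 0.0772 CPM in syngeneic KO libraries and rose there (log2 fold change 2.60 ± 0.58, adjusted p = 0.00579). Tnfsf13b, encoding BAFF, rose in KO cells as well (1.57 ± 0.46, adjusted p = 0.0256), at 0.456 ± 0.0456 CPM in allogeneic KO and 0.153 ± 0.0931 CPM in syngeneic KO libraries. Its call was lost without allogeneic KO replicate 1 or syngeneic KO replicate 1 or 2 (adjusted p 0.0511 to 0.0974, log2 fold changes 1.32 to 1.59). It was also lost in the fit of the KO libraries alone. Between allogeneic KO and syngeneic KO cells 2 of 12 myeloid markers were called higher, Itgam and Cd14, and none lower (16.7%, beside 24.4% of all genes). DESeq2 called 5 of the 12, beside 5412 of all 18447 genes. The log2 fold change was positive for 10 of the 12, with a median of 1.51, against −0.02 over all tested genes. The part of myeloid cells in the Tnfsf12 and Tnfsf13b differences was not tested. In WT cells Tnfsf12 did not pass, and Tnfsf13b had 1.04 ± 0.42 (adjusted p = 0.0739). There Tnfsf13b passed in the fit of the WT libraries alone and without syngeneic KO replicate 3 or syngeneic WT replicate 2 (adjusted p 0.0455 to 0.0459). Tnfsf12 and Tnfsf13 (APRIL) share exons with the read-through gene Tnfsfm13, so their counts are uncertain. Eda, the ligand ectodysplasin, averaged 0.0928 ± 0.0723 CPM in allogeneic WT and 0.168 ± 0.0895 CPM in syngeneic WT libraries (−0.87 ± 0.71) and passed in neither comparison. The 7 members not tested were Tnfsf15, Tnfsf18, Edar, Ngfr, Eda2r, Tnfrsf11b and Tnfsf13os, none above 13 counts in any library.

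Many of these genes share a chromosome with other members. The receptor genes Tnfrsf1b, Tnfrsf8, Tnfrsf9, Tnfrsf25, Tnfrsf14, Tnfrsf4 and Tnfrsf18 share chromosome 4, and all 7 passed in WT cells, Tnfrsf14 lower and the other 6 higher, beside 32.3% of all tested genes. In KO cells Tnfrsf1b, Tnfrsf9 and Tnfrsf25 passed, beside 24.4% of all tested genes, and the other 4 did not. Tnfsf9, Cd70 and Tnfsf14 are neighbours on chromosome 17, and all 3 rose in WT cells, while in KO cells Tnfsf9 and Tnfsf14 rose and Cd70 did not pass. Lta and Ltb, close together elsewhere on that chromosome, fell in both comparisons. On chromosome 6, Cd27, Ltbr and Tnfrsf1a are neighbours, and of these Tnfrsf1a alone passed, in both comparisons.

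The second comparison asks what loss of Wapl changed in T cells from syngeneic recipients. It shares its WT libraries with the allogeneic comparison. Of 38 tested members, 4 passed (2 higher and 2 lower), against 3.37% of all tested genes (0.743% higher and 2.63% lower). DESeq2 called 7, and at an unadjusted p under 0.05 there were 12. The median log2 fold change of the members was 0.04, and that of all tested genes 0.06. From the library values given above, Tnfsf9 rose to 3.498 ± 0.575 CPM in syngeneic KO, against 1.72 ± 0.388 CPM in syngeneic WT libraries (log2 fold change 1.02 ± 0.22, adjusted p = 0.0211). Tnfrsf8 rose to 5.95 ± 0.971 CPM in syngeneic KO, against 3.03 ± 0.605 CPM in syngeneic WT libraries (0.97 ± 0.24, adjusted p = 0.0417). Tnfrsf14 fell to 25.2 ± 3.53 CPM in syngeneic KO, against 42.7 ± 7.97 CPM in syngeneic WT libraries (−0.76 ± 0.15, adjusted p = 0.0159). For these 3 members the groups did not overlap.

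Tnfrsf21 fell to 5.06 ± 2.44 CPM in syngeneic KO, against 14.9 ± 6.31 CPM in syngeneic WT libraries (−1.55 ± 0.36, adjusted p = 0.0352), with overlap, since syngeneic KO replicate 3 stood at 7.65 CPM and syngeneic WT replicate 1 at 7.58 CPM. Myeloid markers fell in the same comparison, 6 of 12 lower and none higher, and so did 4 of 5 erythroid markers. Without Mpo, the myeloid sum was 59.7 CPM in syngeneic KO replicate 3 and 207 CPM in syngeneic WT replicate 1. Tnfsf13 had 0.0804, 0.206 and 0.595 CPM in syngeneic KO and 0.202, 1.37 and 1.23 CPM in syngeneic WT libraries. This is the order of the myeloid sums within each syngeneic group but for the last 2 syngeneic WT libraries. In allogeneic KO libraries it had 0.493, 0.384 and 0.579 CPM, with myeloid sums of 181, 343 and 303 CPM. In allogeneic WT libraries it had 1.01, 0.295 and 0.541 CPM, with sums of 444, 324 and 548 CPM. The order was thus not shared in either allogeneic group. The syngeneic difference of Tnfsf13 did not pass (−1.66 ± 0.74, adjusted p = 0.341), though it did in the fit of the syngeneic libraries alone with a replicate block. Ltbr, the lymphotoxin beta receptor of myeloid and stromal cells, had 0.502, 1.89 and 4.18 CPM in syngeneic KO and 1.29, 2.79 and 3.61 CPM in syngeneic WT libraries, again lowest in both libraries numbered 1. How much other cells contribute to these members was not tested.

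**Figure D4:**
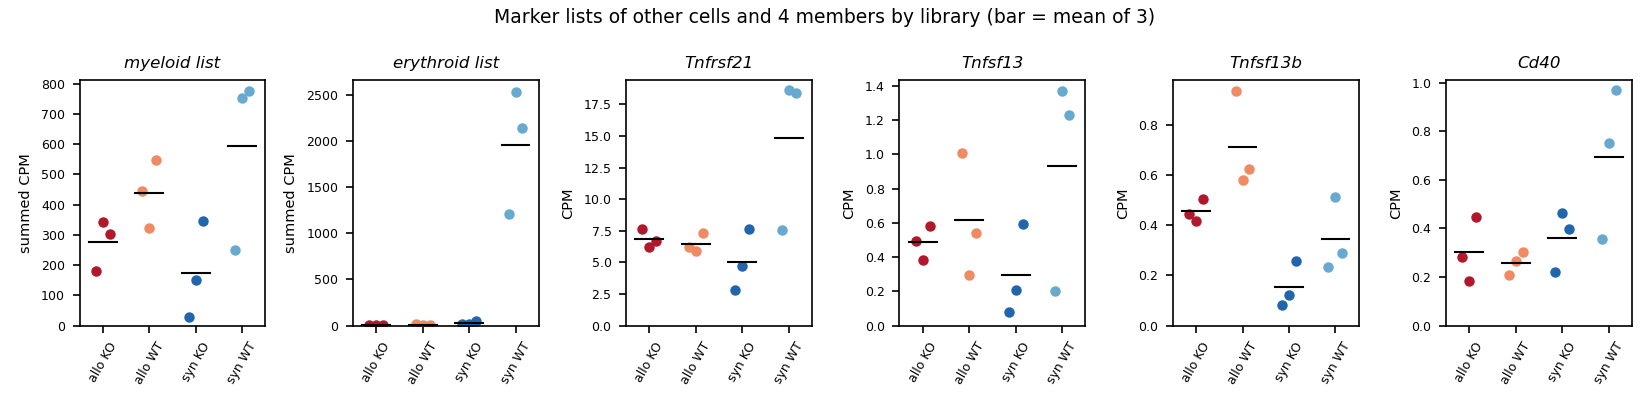
Summed CPM of the myeloid and erythroid marker lists, and CPM of Tnfrsf21, Tnfsf13, Tnfsf13b and Cd40, in each library (points) with the mean of 3 (bar). The erythroid sum is high in syngeneic WT libraries, at 1213 to 2534 CPM against at most 45.99 CPM elsewhere, and Tnfrsf21 is highest in the 2 syngeneic WT libraries with the largest myeloid sums. Across the allogeneic libraries the myeloid sum runs from 181 to 548 CPM, while Tnfrsf21 stays between 5.92 and 7.65 CPM.

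The other members did not pass between syngeneic KO and WT. Tnfrsf9 averaged 41.5 ± 4.08 CPM in syngeneic KO and 21.5 ± 0.785 CPM in syngeneic WT libraries, with no overlap (log2 fold change 0.95 ± 0.24, adjusted p = 0.0551; DESeq2 0.00701). It passed in a fit of the syngeneic libraries alone (adjusted p = 0.0109), in that fit with a replicate block (0.000860), and when allogeneic KO replicate 2 (0.0191) or 3 (0.00348) was left out. Tnfrsf4 had 0.83 ± 0.29 (adjusted p = 0.200), Tnfsf4 1.15 ± 0.35 (0.124, DESeq2 0.0442) and Cd70 1.95 ± 0.59 (0.113, DESeq2 0.0225), each without overlap. Fasl had 0.36 ± 0.19 (adjusted p = 0.424) and Cd40lg −0.32 ± 0.22 (adjusted p = 0.531). The 4 calls depended on which libraries entered the fit: none held without syngeneic KO replicate 2 or syngeneic WT replicate 2 or 3 (0 members called), and of the 4 only that of Tnfrsf21 held without syngeneic KO replicate 3. In those 4 fits the log2 fold changes were 0.88 to 0.98 for Tnfsf9 (adjusted p 0.0617 to 0.124) and −0.78 to −0.65 for Tnfrsf14 (0.0581 to 0.0919). Calls over all genes were 266, 260 and 280 without syngeneic KO replicate 2, syngeneic WT replicate 2 and syngeneic WT replicate 3, and 570 without syngeneic KO replicate 3, against 622 with every library. Tnfrsf8 and Tnfrsf21 were each lost in 9 of 12 such fits (adjusted p 0.0575 to 0.194 for Tnfrsf8 and 0.0514 to 0.162 for Tnfrsf21), those without any 1 allogeneic WT library included, while the log2 fold changes stayed between 0.86 and 1.15 and between −1.30 and −1.59. Without allogeneic KO replicate 3, 6 members passed, and Cd70, Tnfrsf9 and Tnfrsf4 were among them. With the replicate number as a block in the fit of all libraries Tnfrsf8 missed the threshold (adjusted p = 0.0583), and 3 members passed. In the fit of the syngeneic libraries alone with that block, 9 passed, a count that assumes a pairing by number.

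**Figure D5:**
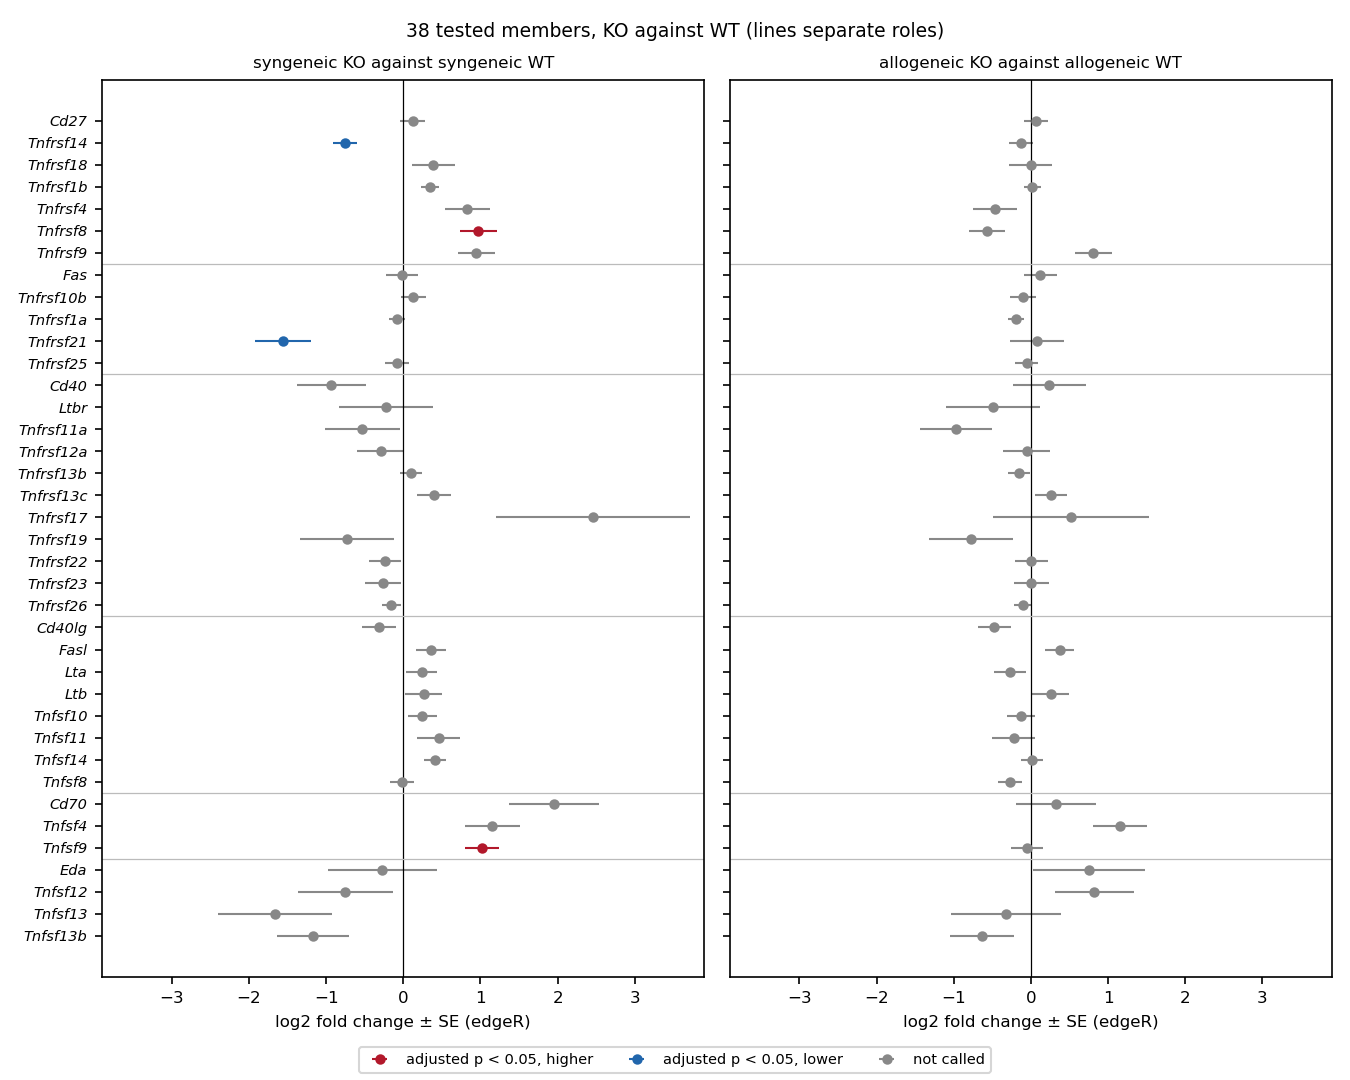
Log2 fold change ± SE of the 38 tested members, syngeneic KO against syngeneic WT (left panel) and allogeneic KO against allogeneic WT (right panel), grouped by role. Coloured points passed the adjusted p of 0.05: Tnfrsf8 and Tnfsf9 higher and Tnfrsf14 and Tnfrsf21 lower in syngeneic KO, and none in allogeneic KO.

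In allogeneic recipients, the comparison of KO with WT cells gave no called member by edgeR, against 0.0542% of all tested genes (0.0434% higher and 0.0108% lower). DESeq2 called 0 members as well. At an unadjusted p under 0.05 there were 4 members: Tnfsf4, Tnfrsf9, Tnfrsf8 and Cd40lg. The median log2 fold change was −0.05, and 0.03 over all tested genes. Tnfrsf9 averaged 153 ± 61.1 CPM in allogeneic KO and 87.2 ± 15.6 CPM in allogeneic WT libraries (0.81 ± 0.24, adjusted p = 0.761). KO replicates 1 and 2 lay above all WT libraries, and KO replicate 3 lay within the WT range. Without that library the log2 fold change was 1.08 and passed (adjusted p = 0.0288). Tnfsf4 stood at 2.65, 1.73 and 1.14 CPM in allogeneic KO and 1.08, 0.5699 and 0.845 CPM in allogeneic WT libraries (1.15 ± 0.35, adjusted p = 0.793), without overlap. Fasl had 0.37 ± 0.19 (95% interval −0.04 to 0.78) and Cd40lg −0.48 ± 0.21 (−0.94 to −0.01). For the more abundant members the intervals were narrow: Tnfrsf1b had 0.02 ± 0.11 (−0.22 to 0.27), Tnfsf14 0.02 ± 0.14 (−0.29 to 0.32) and Cd27 0.07 ± 0.16 (−0.27 to 0.41).

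Allogeneic KO replicate 3 was the lowest library of its group for 21 of the 38 tested members, against 5 and 12 for replicates 1 and 2. Other groups had such libraries too: allogeneic WT replicate 2 was lowest for 19, syngeneic KO replicate 1 for 17 and syngeneic WT replicate 1 for 16. The same count over all tested genes was not made. Allogeneic KO replicate 3 had the lowest Tnfrsf9, Tnfrsf4, Tnfrsf8, Tnfrsf18, Cd40lg, Cd70, Tnfsf4, Tnfsf9, Tnfsf10 and Tnfsf11 values of the 3, and the highest Tnfrsf22 value. Its Cd4 stood at 209 CPM, against 385 and 312 CPM in replicates 1 and 2. On the second principal component of all tested genes it stood at −36.0, against 30.1 and 17.9 for the other allogeneic KO libraries. Allogeneic WT libraries stood there at −26.3 to −17.3, and syngeneic WT libraries at 13.97, −46.2 and −40.05.

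The difference between settings in the KO effect was tested as an interaction (KO minus WT in allogeneic, minus KO minus WT in syngeneic recipients). No member passed by edgeR, against 0.477% of all tested genes (0.428% with a positive and 0.0488% with a negative difference). At an unadjusted p under 0.05 there were 5, and DESeq2 called 2, Tnfrsf8 and Tnfsf9. Tnfrsf8 differed by −1.55 ± 0.33 on the log2 scale (edgeR adjusted p = 0.0740, DESeq2 0.00103), being higher in KO in the syngeneic setting and at −0.57 ± 0.23 in the allogeneic one. Tnfsf9 differed by −1.07 ± 0.30 (edgeR 0.242, DESeq2 0.0468). Tnfrsf4 had −1.30 ± 0.41 (adjusted p = 0.351) and Tnfrsf21 1.63 ± 0.50 (adjusted p = 0.338). Tnfrsf21 passed without syngeneic WT replicate 1 (1.95, adjusted p = 0.0449). For Tnfrsf9 and Fasl the differences were −0.14 ± 0.34 (95% interval −0.87 to 0.60) and 0.01 ± 0.27 (−0.57 to 0.60).

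Downstream genes of the pathway were read from a pair of lists. Of 23 genes that act next to the receptors, all tested, 4 were higher and 3 lower in allogeneic WT against syngeneic WT, and 3 higher and 3 lower in the KO cells, shares of 30.4% and 26.1% beside the 32.3% and 24.4% of all genes. Edaradd, the adaptor of the ectodysplasin receptor, had −1.09 in WT (adjusted p = 0.00112) and −1.13 in KO cells (0.00121). Tab2, which links TRAF signals to the kinase TAK1, rose by 0.52 in WT (0.00118) and 0.61 in KO cells (0.000541). Tradd, the adaptor of the death domain receptor Tnfrsf1a, rose by 0.76 in WT cells (0.00209). Map3k14, the kinase of non-canonical NF-kB signalling, had −0.55 in KO cells (0.00578). Of 19 NF-kB subunits and feedback genes, 5 were higher and 2 lower in WT (36.8%), and 3 higher and 3 lower in KO cells (31.6%). Tnip3, an inhibitor of NF-kB, rose by 2.14 in WT (0.000963) and 1.40 in KO cells (0.0147). Otulin, which removes linear ubiquitin chains, rose by 0.74 in WT (0.00101) and Nfkb1 by 0.65 (0.00147). In KO cells the subunit Relb had −0.78 (0.00103) and Ikbkb, the kinase that marks IkB for degradation, −0.56 (0.00374).

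Between KO and WT cells, neither list held a gene called by edgeR in either setting. At an unadjusted p under 0.05 the NF-kB list had 5 genes in the syngeneic and 2 in the allogeneic setting, and the receptor-proximal list 3 and 0. DESeq2 called 2 genes of the NF-kB list in the syngeneic and 1 in the allogeneic setting, and 0 of the receptor-proximal list in both. Tnfaip3, the ubiquitin-editing enzyme A20, had −1.31 ± 0.33 in syngeneic KO against WT (edgeR adjusted p = 0.0561, DESeq2 0.00107). Nfkbiz, a nuclear IkB protein, had −0.51 ± 0.15 in the same comparison (edgeR 0.100, DESeq2 0.0310), and Nfkb2 had 0.36 ± 0.13 (0.223). Nfkbid, another nuclear IkB protein, had −0.50 ± 0.11 in allogeneic KO against WT (edgeR 0.289, DESeq2 0.00176). Tnf itself stood at 10.9, 14.9 and 10.1 CPM in allogeneic KO libraries and 11.96, 11.5 and 15.3 CPM in allogeneic WT libraries, against 57.4, 24.1 and 20.6 CPM in syngeneic KO libraries and 26.5, 19.6 and 22.3 CPM in syngeneic WT libraries. Every allogeneic library lay below every syngeneic one, with syngeneic KO replicate 1 the highest by far. Its log2 fold change was −0.82 ± 0.32 in WT (adjusted p = 0.0719) and −1.51 ± 0.33 in KO cells (adjusted p = 0.00548), the same direction as its genomic neighbours Lta and Ltb. Relt, another TNF receptor family gene, had −0.37 ± 0.11 in WT cells (adjusted p = 0.0262).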

How the data were processed

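The authors deposited a table of expected counts per gene, not scaled between libraries. Per the submitters' processing notes, the tools included Cuffdiff 2.2.1, Cufflinks, Bowtie2 2.2.1 and TopHat2 2.0.13, and the mouse build was GRCm38. Which tool made the counts, the annotation and the strand setting are not given in the sources used here. Libraries were made with ribosomal RNA depletion from 100 ng of total RNA, per the labels' protocols. Between 94.5 and 95.0% of values were whole numbers, and all were rounded. The labels list 18 samples, and 12 columns were matched by the identifier in the title. The naive samples were not analysed here. A further 6 columns repeat the allogeneic identifiers behind a prefix (allo). They were not used, and what they hold is not given in the sources used here. All allogeneic values are those of the columns without the prefix, so their assignment rests on the identifier alone.

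Members and lists were chosen with earlier results of these data known. All 12 libraries entered 1 quasi-likelihood fit of group means in edgeR 4.0.16 (R 4.3.3, limma 3.58.1), which left 8 residual degrees of freedom. It used TMM scaling, filterByExpr (count minimum 10, 18447 genes kept) and a robust fit, and was tested on simulated data. Tests were two-sided, and p was adjusted by Benjamini-Hochberg over all tested genes and called under 0.05. The SE is the log2 fold change divided by the root of F. CPM uses TMM-adjusted totals, and the 95% intervals use the model's degrees of freedom. Positions and exon lengths come from GENCODE M21 (GRCm38), which held all 45 members. With these depths, low members are limited by counting error. Values in every library are given for the 3 marker genes, every member called between KO and WT, and the 12 largest allogeneic changes with a mean of at least 1 CPM. Of each signalling list the genes with the smallest p are named.

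Alternatives were DESeq2 1.42.0, DESeq2 size factors, no filter, removal of ribosomal RNA genes, a replicate block, fits of the compared groups only and leaving out each library. The deviations of same-numbered libraries of syngeneic KO and syngeneic WT had r of 0.545, 0.170 and 0.335. Unlike numbers had −0.501 to 0.363. The highest of these, for syngeneic KO replicate 3 with syngeneic WT replicate 2, lay above 0.335, the r of both replicates 3. These values do not establish a pairing by number, and the labels state none. The replicate block assumes one. In the allogeneic pair r was 0.00980, −0.137 and 0.184.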

Additional observations from a re-analysis of the deposited data

Results flagged for a closer look

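The effect of KO on Tnfrsf8 (CD30) differed between settings by DESeq2 and not by edgeR. By DESeq2 the interaction was −1.54 on the log2 scale (adjusted p = 0.00103). By edgeR it was −1.55 (adjusted p = 0.0740), which did not pass. Over the alternatives tried, its adjusted p ran from 0.00103 to 0.252 and the log2 value from −1.34 to −1.79. All 3 allogeneic KO libraries (3.76 to 7.16 CPM) lay below all 3 allogeneic WT libraries (8.03 to 8.16 CPM). In the syngeneic setting all 3 KO libraries (4.94 to 6.88 CPM) lay above all 3 WT libraries (2.67 to 3.73 CPM). These are the values behind the interaction and add no separate support to it. How many of all tested genes show such a pattern was not counted.

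The effect of KO on Tnfsf9, the CD137 ligand, also differed between settings by DESeq2, at −1.06 (adjusted p = 0.0468), and by edgeR it was −1.07 without passing (adjusted p = 0.242). Its adjusted p ran from 0.0468 to 0.676 over the alternatives. Tnfsf9 was higher in KO in the syngeneic setting (1.02) and at −0.05 in the allogeneic one.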

How the results depend on the processing

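Of the members with values in every library, none changed direction under an alternative in the comparisons recomputed for it. Between allogeneic and syngeneic WT cells 19 to 25 members passed when a library was left out, and 14 to 20 in KO cells, with 22 to 26 and 13 to 18 under the other settings. For syngeneic KO against WT the count of 4 became 7 by DESeq2 (adding Cd70, Tnfsf4 and Tnfrsf9), 2 in a fit of the syngeneic libraries alone (Tnfrsf9 and Tnfrsf4, with none of the 4 kept), and 0 to 6 when a library was left out. For allogeneic KO against WT the range was 0 to 1 and for the interaction 0 to 1. The interaction count was 2 by DESeq2 and 2 (Tnfrsf21 and Tnfsf9) without both syngeneic libraries numbered 1, a setting chosen after seeing the data. In a fit of fewer groups, fewer libraries shared the estimate of the spread. The cause of the changed calls was not tested for any setting. Members below about 1 CPM are limited by depth.

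With the replicate number as a block in the fit of all libraries, 23, 18, 3, 0 and 0 members passed in the order of the report, the gains being Tnfrsf4 and Tnfrsf18 in KO cells and the loss Tnfrsf8. In the fit of the syngeneic libraries alone with the replicate block, 9 passed: the 4 members, Cd70, Tnfsf4, Tnfrsf9, Tnfrsf4 and Tnfsf13. In the allogeneic libraries alone with the block, 0 passed. The counts with the block assume that replicate numbers pair the libraries, which the labels do not state.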
